A study of Mus musculus with 6 samples.

Results

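Neuroligins, neurexins and their partner adhesion molecules were examined in cultured mouse glioma cells. The set was taken by gene symbol and holds 9 of the 54446 genes listed in the count matrices. They are the neuroligins Nlgn1, Nlgn2 and Nlgn3, the neurexins Nrxn2 and Nrxn3, the leucine-rich repeat proteins Lrrtm1 and Lrrtm2, and the cell adhesion molecules Cadm1 and Cadm2. GL261 is an established mouse glioma cell line, and 2 libraries came from GL261 cells in a differentiation medium with foetal calf serum (FCS). GL261-GSCs carry the label of glioblastoma stem cells, were kept in a defined medium for such cells, and gave 4 libraries. No genetic change or drug distinguishes the groups in the labels, so culture label and medium cannot be told apart. Cells and neurospheres were separated with Accutase and met a lysis buffer with a non-ionic detergent, and either cells or nuclei were captured in droplets for 5' single-cell RNA-seq. The sources used here do not say whether replicates are separate cultures, so each p-value measures the spread between these libraries, which may be technical.

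Neurexins are presynaptic membrane proteins that bind several families of postsynaptic partners across the synaptic cleft. Neuroligins and LRRTM proteins are such partners, while CADM proteins, also called SynCAMs, are immunoglobulin-family molecules that bind each other on neighbouring cells, glia included. In glioma the family is known through neuroligin-3, whose shed extracellular part is released by active neurons and promotes tumour growth, with the protease ADAM10 doing the cutting.

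The called cells numbered 4264 to 7275 per library and held 33320530 to 79472306 unique molecular identifiers (UMIs, each a captured RNA molecule), with the lowest total in GL261-GSCs replicate 4. The median cell held 15478 and 13652 UMIs in the GL261 libraries, against 15374, 11890, 10638 and 6670 in GL261-GSCs replicates 1 to 4. Pairs of libraries shared 32 to 59 called barcodes, where chance gives 26.1 to 57.9. Of 6 oligodendrocyte precursor markers, Olig1, Olig2, Pdgfra and Gpr17 were higher in every GL261-GSCs library than in both GL261 libraries, with Olig2 at 0.918 and 0.0166 CPM (counts scaled to a common library size by TMM) in GL261 and 401, 413, 787 and 628 CPM in GL261-GSCs replicates 1 to 4. The other two overlapped, with Cspg4 at 164 and 200 CPM in GL261 and 67.2, 83.3, 148 and 209 CPM in GL261-GSCs, and Sox10 between 304 and 382 CPM in all 6 libraries. Of 10 neuron markers, Rbfox3 and Slc17a6 had 0 UMIs in every library, and the summed level of the list was 0.712 to 0.918 CPM in GL261 and 2.12 to 85.6 CPM in GL261-GSCs. Most of it in GL261-GSCs came from Syt1, which stood at 0.0148 and 0.0331 CPM in GL261 and at 1.15, 12.4, 51.6 and 78.2 CPM in GL261-GSCs replicates 1 to 4, the same order of libraries as Cadm2 there. Elavl4 had that order too, at 0, 0.179, 3.33 and 6.24 CPM in GL261-GSCs and 0 in both GL261 libraries. Among the other neuron markers, Snap25, Gad1, Gad2 and Nefl were at or below 0.0690 CPM in every library. Syp stood at 0.622 and 0.480 CPM in GL261 and 0.804, 0.787, 0.863 and 0.934 CPM in GL261-GSCs. Slc17a7 overlapped between the groups, at 0.267 and 0.182 CPM in GL261 and 0.0910 to 0.275 CPM in GL261-GSCs. The part of cells with Syt1 or Elavl4 in the Cadm2 level was not tested.

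UMIs of each gene were summed over the cells of a library and compared across the 6 libraries. Of the 9 genes, 6 had enough UMIs to test, and Nlgn1, Nrxn3 and Lrrtm1 did not. Among the 6 tested, 1 gene, Cadm2, was called at an adjusted p under 0.05 (16.7%), where 29.9% of all 18439 genes tested were called in either direction and 15.8% were called higher in GL261-GSCs. Cadm2 was also the only tested member whose libraries did not overlap between the groups, where 56.7% of all genes tested did not overlap. The median log2 fold change of the 6 was 0.23, against 0.04 over all genes tested.

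**Figure D1:**
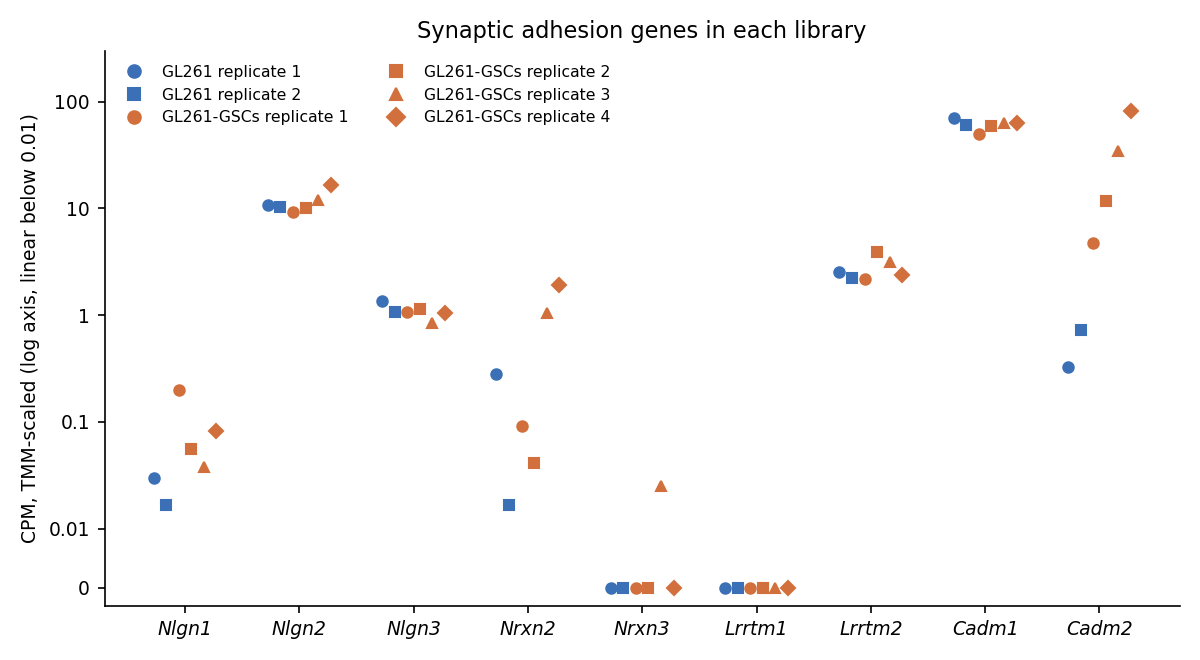
Level of each of the 9 genes in each library, in TMM-scaled CPM on a log axis that is linear below 0.01; colours mark the groups and symbols the replicates. Cadm2 lies between 4.76 and 82.7 CPM in GL261-GSCs and at 0.326 and 0.729 CPM in GL261, whereas the libraries of Cadm1, Nlgn2, Nlgn3 and Lrrtm2 lie close together and Lrrtm1 is at 0 in all 6.

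Cadm2, an adhesion molecule of the SynCAM family found mainly in the nervous system, was close to absent from GL261 and rose in GL261-GSCs. Its locus (ENSMUSG00000064115.13, chr16:66655421-67620908, minus strand, GRCm38) spans 965 kb, and none of the 4 annotated genes that overlap it is protein-coding. GL261 replicates 1 and 2 held 22 and 44 Cadm2 UMIs, which is 0.326 and 0.729 CPM. The GL261-GSCs libraries held 314, 859, 2785 and 3009 UMIs, at 4.76, 11.9, 34.8 and 82.7 CPM in replicates 1 to 4. Every GL261-GSCs library was above both GL261 libraries, and within GL261-GSCs the highest library stood far above the lowest. The group means were 33.5 ± 35.2 CPM (SD, n = 4) and 0.527 ± 0.285 CPM (SD, n = 2), and the log2 fold change of Cadm2 was 5.99 (SE 1.43, 95% interval 2.60 to 9.39, adjusted p = 0.0208, edgeR quasi-likelihood test). The call was lost when either GL261 library was left out, at 5.51 (adjusted p = 0.147, edgeR) without GL261 replicate 1 and 6.66 (adjusted p = 0.120, edgeR) without GL261 replicate 2, and under limma-voom, at 5.25 (adjusted p = 0.0737). Without GL261-GSCs replicate 4 the log2 fold change was 5.06 (adjusted p = 0.0176, edgeR).

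The 250 bases upstream of the annotated starts of Cadm2 and Nlgn2 are shown because Cadm2 was the gene that differed most in level and Nlgn2 is the neuroligin with the most UMIs in both cultures. They are RefSeq promoter sequence on GRCm38.p6, read 5' to 3' on the gene's strand, from chr16:67620909-67621158 (minus strand) for Cadm2 and from chr11:69837785-69838034 (minus strand) for Nlgn2, and overlap no annotated exon. Capitals mark CG dinucleotides, the sites of DNA methylation in mammals.
Cadm2: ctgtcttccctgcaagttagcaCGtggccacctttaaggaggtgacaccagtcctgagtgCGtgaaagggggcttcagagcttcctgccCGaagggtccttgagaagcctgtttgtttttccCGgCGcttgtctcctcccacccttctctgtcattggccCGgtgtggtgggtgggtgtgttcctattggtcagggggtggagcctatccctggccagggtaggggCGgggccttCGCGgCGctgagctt
Nlgn2: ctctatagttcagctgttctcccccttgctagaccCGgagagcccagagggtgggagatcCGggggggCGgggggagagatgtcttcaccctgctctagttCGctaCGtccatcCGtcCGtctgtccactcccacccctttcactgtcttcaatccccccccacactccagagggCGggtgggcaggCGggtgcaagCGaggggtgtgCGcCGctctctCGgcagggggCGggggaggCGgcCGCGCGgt
The Cadm2 window has 10 CG dinucleotides and 60.8% G and C, and the Nlgn2 window 18 and 67.6%. Of the 32851 promoter windows in the same table, 62.2% had fewer CG dinucleotides than that of Cadm2 and 78.3% fewer than that of Nlgn2. The letters CCAAT, searched on both strands, occur at 2 places in the Cadm2 window and at 0 in that of Nlgn2, and 33.8% of all windows hold them. CANNTG, the E-box, occurs once in each window, as it does at least once in 66.2% of all windows. No measurement in these libraries bears on methylation or binding at these sites.

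Within each GL261-GSCs library the Cadm2 level fell from the shallow to the deep cells. Cells were split by UMI count into 4 depth classes of equal cell number, with CPM taken over the UMIs of the class. From the shallowest to the deepest class, Cadm2 ran through 9.51, 6.93, 3.34 and 3.25 CPM in GL261-GSCs replicate 1. In replicate 2 it ran through 35.9, 14.2, 8.51 and 6.27. In replicate 3 the classes stood at 115, 52.7, 23.4 and 14.7, and in replicate 4 at 283, 161, 73.5 and 35.8. The shallowest class was the highest in all 4 libraries. Malat1, a nuclear non-coding RNA, was likewise highest in the shallowest class, at 6422, 6993, 11693 and 18905 CPM in replicates 1 to 4, against 2384, 3010, 3045 and 4690 in the deepest. In GL261 replicates 1 and 2 the shallowest class was also the highest, with Cadm2 at 0.686 and 1.57 CPM on 5 and 12 UMIs. Malat1 there stood at 11327 and 8645 CPM, against 3563 and 3965 in the deepest. Cadm2 was also highest in the class with the largest mitochondrial share, of 4 such classes in each GL261-GSCs library, at 8.65, 20.3, 88.5 and 159 CPM. The same held in GL261, at 0.598 and 1.09 CPM on 7 and 13 UMIs. In GL261-GSCs replicates 3 and 4 the class with the smallest mitochondrial share was the next highest, at 33.3 and 98.5 CPM. In replicates 1 and 2 the class with the second largest share was, at 4.64 and 13.0 CPM. The part of nuclear RNA, damaged cells or nuclei in the Cadm2 difference was not tested.

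**Figure D2:**
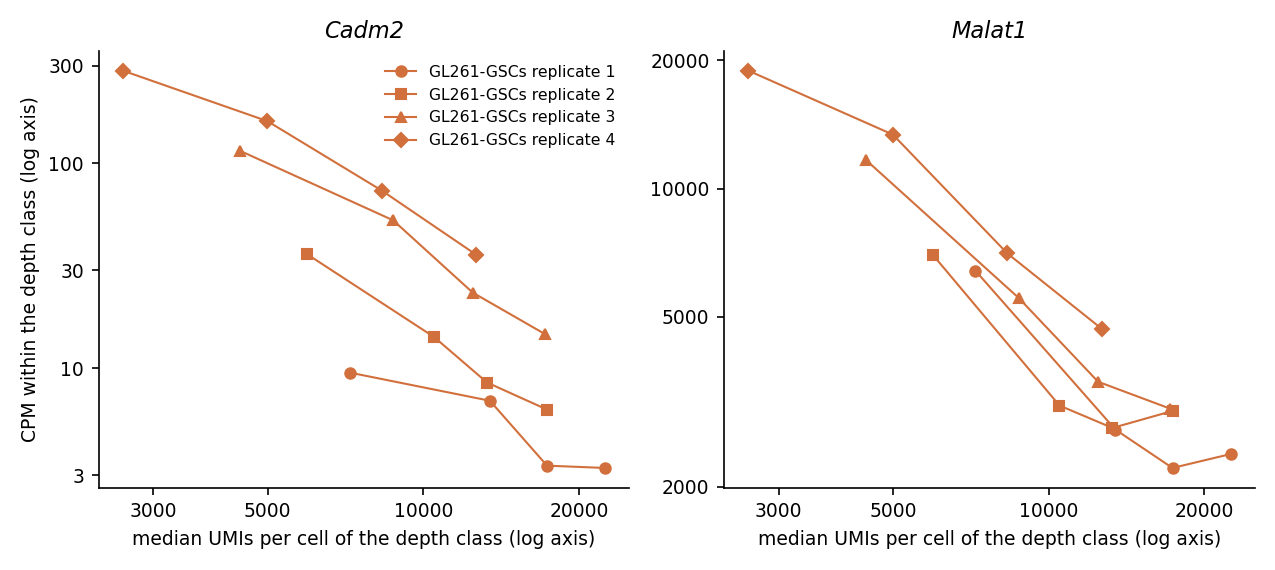
Level of Cadm2 (left) and Malat1 (right) in CPM in 4 classes of cells by UMI count, for the 4 GL261-GSCs libraries, against the median UMIs per cell of the class; both axes are logarithmic. Cadm2 runs from 283 to 35.8 in replicate 4 and from 9.51 to 3.25 in replicate 1, and for Cadm2 the order of the libraries is the same in every class.

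In cells with at least 10000 UMIs, an alternative chosen after seeing the data, the groups still did not overlap. There Cadm2 stood at 0.271 and 0.580 CPM in GL261 and at 4.02, 7.76, 19.6 and 35.6 CPM in GL261-GSCs replicates 1 to 4. Its log2 fold change was 5.29 (SE 1.11, adjusted p = 0.0115, edgeR quasi-likelihood test). The level in each GL261-GSCs library was lower there than over all cells, and most so in replicate 4.

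Cadm2 was detected in a minority of cells. Each cell was thinned to 2000 UMIs, and no called cell was shallower than that. At this depth 0.0832% and 0.180% of GL261 cells and 1.08%, 2.91%, 8.34% and 18.7% of GL261-GSCs cells in replicates 1 to 4 held a Cadm2 UMI. Free RNA was read from the barcodes that held 100 to under 1000 UMIs. If all 2000 UMIs of a cell were free RNA, 0.0466% and 0.0855% of cells in the GL261 libraries would hold a Cadm2 UMI. In GL261-GSCs it would be 0.738%, 1.26%, 4.31% and 10.95%. This expectation compares free RNA with cells and does not give the part of free RNA in a cell. Over all called cells the measured share was above that expectation in every library. The lower bound of its 95% exact binomial (Clopper-Pearson) interval was above it in the 4 GL261-GSCs libraries. This did not hold at every depth. In the deepest of the 4 depth classes the share was below the expectation, at 0.657%, 0.817%, 2.75% and 6.47% in GL261-GSCs replicates 1 to 4. In the shallowest class it was above, at 1.78%, 6.20%, 17.4% and 33.9%. Intervals cover counting error only. The GL261-GSCs mean share was 7.76% ± 7.92 (SD, n = 4), against 0.132% ± 0.0684 (SD, n = 2) for GL261, with an exact permutation p of 0.133, the smallest that 2 libraries against 4 can give, and 0.60 after Benjamini-Hochberg adjustment over the 9 genes (2-sided). The difference in mean share of 7.63 percentage points became 3.98 without GL261-GSCs replicate 4, 3.18 in cells with at least 10000 UMIs and 4.50 at 1000 UMIs per cell. Without thinning the shares were 0.437% and 0.840% for the GL261 libraries, and 6.12%, 10.2%, 23.5% and 35.4% in GL261-GSCs.

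The Cadm2 UMIs were spread unevenly among GL261-GSCs cells. The variance of Cadm2 UMIs over cells, at 2000 UMIs per cell, was 1.15, 1.61, 1.57 and 2.01 times the mean in replicates 1 to 4, where random sampling of a uniform level gives 1. A single cell held up to 18 Cadm2 UMIs. For Cadm1 the same ratio was 1.04 to 1.10 over the 6 libraries, and for Nlgn2 it was 1.01 to 1.04.

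Cadm1, a broadly expressed SynCAM first known as a tumour suppressor in lung cancer, was present at a similar level in both cultures. Its locus (ENSMUSG00000032076.19, chr9:47530173-47857637, plus strand, GRCm38) spans 327 kb. The level was 69.7 and 59.9 CPM in GL261 and 49.9, 59.1, 63.3 and 63.1 CPM in GL261-GSCs replicates 1 to 4. The groups overlapped, with the lowest library in GL261-GSCs and the highest in GL261. The log2 fold change of Cadm1 was -0.14 (SE 0.15, 95% interval -0.49 to 0.21, adjusted p = 0.501, edgeR quasi-likelihood test), an interval that does not reach a 2-fold change in either direction. With scaling by library size alone the value was 0.0088, on the other side of 0. Cadm1 too was highest in the shallowest class of cells in GL261-GSCs replicates 1, 2 and 3, at 80.2, 92.2 and 117 CPM. The deepest class there stood at 46.3, 53.5 and 54.6 CPM. In replicate 4 the second shallowest class was the highest, at 99.3 CPM. Both GL261 libraries were highest in the shallowest class, at 76.7 and 69.8 CPM against 59.1 and 49.8 CPM in the deepest.

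The CADM relatives outside the set were named with their values known. Cadm4, best known on Schwann cells, where it binds axons, stood at 256 and 325 CPM in GL261 and at 54.4, 49.2, 88.9 and 98.9 CPM in GL261-GSCs, with no overlap. Its log2 fold change was -1.996, with an SE of 0.30 (adjusted p = 0.00382, edgeR). Cadm3 had 0 UMIs in all libraries. Of the 4 CADM genes, Cadm2 was called higher, Cadm4 lower and Cadm1 in neither direction.

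**Figure D3:**
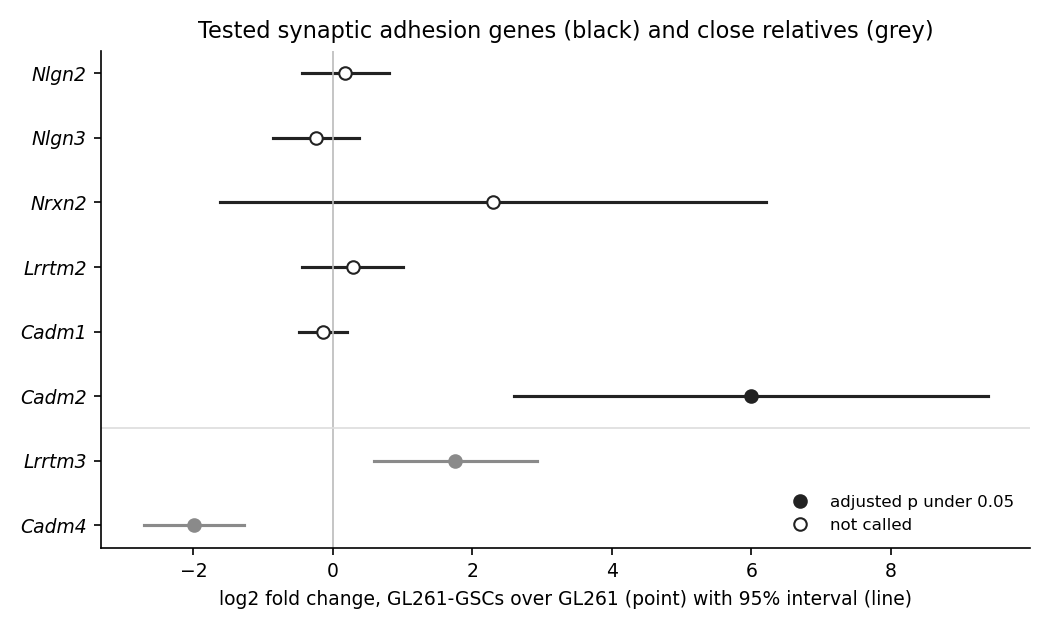
Log2 fold change of GL261-GSCs over GL261 for the 6 tested genes (black) and 2 relatives (grey), with unadjusted 95% intervals as lines; filled points passed an adjusted p of 0.05. Cadm2 at 5.99 is the only filled black point, and the intervals of Cadm1, Nlgn2, Nlgn3 and Lrrtm2 are short and cross 0, while that of Nrxn2 runs from -1.62 to 6.21.

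Nlgn2, the neuroligin of inhibitory synapses, was detected in every library. Its locus (ENSMUSG00000051790.15, chr11:69823122-69837784, minus strand, GRCm38) spans 14.7 kb and overlaps no other annotated gene. The level was 10.9 and 10.2 CPM in GL261 and 9.25, 10.1, 11.9 and 16.5 CPM in GL261-GSCs replicates 1 to 4. GL261 fell inside the range of GL261-GSCs, and replicate 4 was the highest library. The log2 fold change of Nlgn2 was 0.18 (SE 0.26, 95% interval -0.44 to 0.80, adjusted p = 0.634, edgeR quasi-likelihood test). In cells with at least 10000 UMIs Nlgn2 stood at 10.0 and 9.24 CPM in GL261 and 8.10, 8.92, 9.70 and 11.7 CPM in GL261-GSCs, and its log2 fold change was -0.0072. Like Cadm2, Nlgn2 was highest in the shallowest cells of every GL261-GSCs library, at 17.8, 15.8, 25.6 and 33.2 CPM against 7.34, 8.82, 8.38 and 11.6 CPM in the deepest class. Both GL261 libraries had the same pattern, at 14.7 and 13.6 CPM in the shallowest class against 8.92 and 8.81 CPM in the deepest.

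Nlgn3, whose shed form acts on glioma cells, was near 1 CPM in both cultures. Its locus (ENSMUSG00000031302.16, chrX:101299168-101325963, plus strand, GRCm38) spans 26.8 kb. GL261 held 91 and 65 Nlgn3 UMIs (1.35 and 1.08 CPM), and GL261-GSCs held 70, 83, 68 and 38 (1.06, 1.15, 0.850 and 1.04 CPM). GL261 replicate 1 was the highest library, and the groups overlapped. The log2 fold change of Nlgn3 was -0.24 (SE 0.26, 95% interval -0.86 to 0.37, adjusted p = 0.510, edgeR quasi-likelihood test). Thinned to 2000 UMIs, 0.333% and 0.280% of GL261 cells held a Nlgn3 UMI, against 0.164%, 0.273%, 0.247% and 0.244% of GL261-GSCs cells. These shares did not overlap (exact permutation p = 0.133), though the unthinned shares, at 1.71% and 1.30% in GL261 and 0.842% to 1.62% in GL261-GSCs, did. Free RNA alone would give 0.0122% to 0.0652% at 2000 UMIs, below the measured share in each of the 6 libraries.

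Nlgn1, the neuroligin of excitatory synapses, was close to the limit of detection. GL261 held 2 and 1 UMIs of Nlgn1, and GL261-GSCs held 13, 4, 3 and 3 in replicates 1 to 4. The CPM of the groups did not overlap, and most of the GL261-GSCs molecules came from replicate 1. The summed level was 3.85 times that of GL261, with a 95% counting interval of 1.16 to 20.02 that ignores the spread between libraries, and no test was made. In cells with at least 10000 UMIs the GL261 libraries held 1 UMI each and the GL261-GSCs libraries 7, 4, 2 and 0, so the groups then overlapped. The Nlgn1 locus (ENSMUSG00000063887.13, chr3:25426215-26332460, minus strand, GRCm38) spans 906 kb.

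Nrxn2, a neurexin and so a presynaptic partner of the neuroligins, had few UMIs and was uneven between replicates. GL261 held 19 and 1 UMIs (0.281 and 0.0166 CPM), and GL261-GSCs held 6, 3, 83 and 70 (0.0910, 0.0414, 1.04 and 1.92 CPM). GL261-GSCs replicates 3 and 4 were above all other libraries, and replicates 1 and 2 lay between the GL261 libraries. The log2 fold change of Nrxn2 was 2.29 (SE 1.65, 95% interval -1.62 to 6.21, adjusted p = 0.330, edgeR quasi-likelihood test). Leaving out 1 library moved it from 1.40 without GL261-GSCs replicate 4 to 5.34 without GL261 replicate 1. The Nrxn2 locus (ENSMUSG00000033768.16, chr19:6418731-6544169, plus strand, GRCm38) overlaps the protein-coding Slc22a12 on the opposite strand. The sources used here do not say whether counting used the strand, so reads of overlapping genes may not be separated.

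Nrxn3, also a neurexin, was close to absent. Its UMIs were 2 in GL261-GSCs replicate 3 and 0 in the other 5 libraries. The locus (ENSMUSG00000066392.11, chr12:88722876-90334935, plus strand, GRCm38) spans 1612 kb. Replicate 3 thus stood at 0.0250 CPM, and in the libraries at 0 a limit of 3 UMIs per library allows 0.0414 to 0.0824 CPM.

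UMIs of these neuroligins were found in a minority of cells, and those of Nrxn2 and Nrxn3 in fewer. Among the 3 neuroligins, at least 1 UMI was found in 15.1% and 12.4% of GL261 cells and 14.3%, 12.5%, 12.8% and 12.8% of GL261-GSCs cells, unthinned and with free RNA not taken off. For Nrxn2 or Nrxn3 that held for 0.374% and 0.0200% of GL261 cells and 0.141%, 0.0511%, 1.13% and 1.55% of GL261-GSCs cells. No UMI of any of the 9 genes was found in 35.7% to 46.4% of the cells of a library.

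Lrrtm2, a postsynaptic neurexin partner at excitatory synapses, was low in both cultures. Its locus (ENSMUSG00000071862.2, chr18:35209003-35215024, minus strand, GRCm38) spans 6.02 kb inside Ctnna1, which runs on the opposite strand. GL261 held 173 and 134 UMIs (2.56 and 2.22 CPM), and GL261-GSCs held 145, 285, 251 and 86 (2.20, 3.93, 3.14 and 2.36 CPM). The groups overlapped, with GL261-GSCs replicate 2 highest. The log2 fold change of Lrrtm2 was 0.28 (SE 0.31, 95% interval -0.44 to 1.01, adjusted p = 0.516, edgeR quasi-likelihood test), an interval that just reaches a 2-fold rise. Lrrtm2 was highest in the shallowest class of cells in all 4 GL261-GSCs libraries, at 4.36, 7.79, 5.61 and 7.23 CPM, against 1.39, 3.08, 2.83 and 2.04 CPM in the deepest. In GL261 replicate 1 the shallowest class stood at 2.74 CPM and the deepest at 2.62 CPM. In GL261 replicate 2 the deepest was the highest, at 2.17 CPM against 1.96 CPM in the shallowest. Ctnna1, which encodes alpha-E-catenin of adherens junctions, was lower by a log2 fold change of -1.74, with an SE of 0.14 (adjusted p = 0.00037, edgeR), with GL261 at 353 ± 3.28 CPM (SD, n = 2) and GL261-GSCs at 106 ± 13.0 CPM (SD, n = 4). That fall was called while Lrrtm2 was not, and the difference between these changes was not tested.

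Lrrtm1 (ENSMUSG00000060780.2, chr6:77242689-77257791, plus strand, GRCm38), which lies inside Ctnna2, had 0 UMIs in all 6 libraries. A limit of 3 UMIs per library allows 0.0375 to 0.0824 CPM. Of Ctnna2 itself, GL261 held 0 UMIs and GL261-GSCs 5. Lrrtm3 stood at 2.04 and 2.24 CPM in GL261 and at 3.03, 6.93, 8.99 and 10.0 CPM in GL261-GSCs, with no overlap. The rise of 1.76 on the log2 scale, with an SE of 0.49, passed the threshold (adjusted p = 0.0360, edgeR), a call lost under limma-voom (adjusted p = 0.0684) and without any library but GL261-GSCs replicate 1 (adjusted p = 0.0554 to 0.197, edgeR). Of Lrrtm4, GL261 held 0 UMIs and GL261-GSCs 2.

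Shares of cells were compared for the genes with more UMIs. For Cadm1 the share at 2000 UMIs per cell was 12.6% and 10.98% for the GL261 libraries, and 9.85%, 12.7%, 12.5% and 14.01% in GL261-GSCs, where free RNA alone would give 9.91%, 5.85%, 5.89%, 7.23%, 10.3% and 9.58% in the same order. The Cadm1 groups overlapped (exact permutation p = 0.80). Nlgn2 was seen in 2.35% and 1.94% of GL261 cells and 1.95%, 2.32%, 2.67% and 4.48% of GL261-GSCs cells, with overlap (exact permutation p = 0.533). If all UMIs were free RNA, the Nlgn2 share would be 1.66% and 1.30% for the GL261 libraries. In GL261-GSCs it would be 1.73%, 2.20%, 2.59% and 3.90%. In all 4 GL261-GSCs libraries this expectation fell inside the 95% counting interval of the measured share. The Nlgn2 level was thus similar in free RNA and cells there, and the part of free RNA in the cells was not tested. Lrrtm2 was seen in 0.520% and 0.420% of GL261 cells and 0.446%, 0.988%, 0.825% and 0.820% of GL261-GSCs cells, and the free RNA expectation of 0.368%, 0.907% and 0.735% fell inside the counting interval in GL261-GSCs replicates 1 to 3. After adjustment over the 9 genes the lowest exact permutation p was 0.60.

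**Figure D4:**
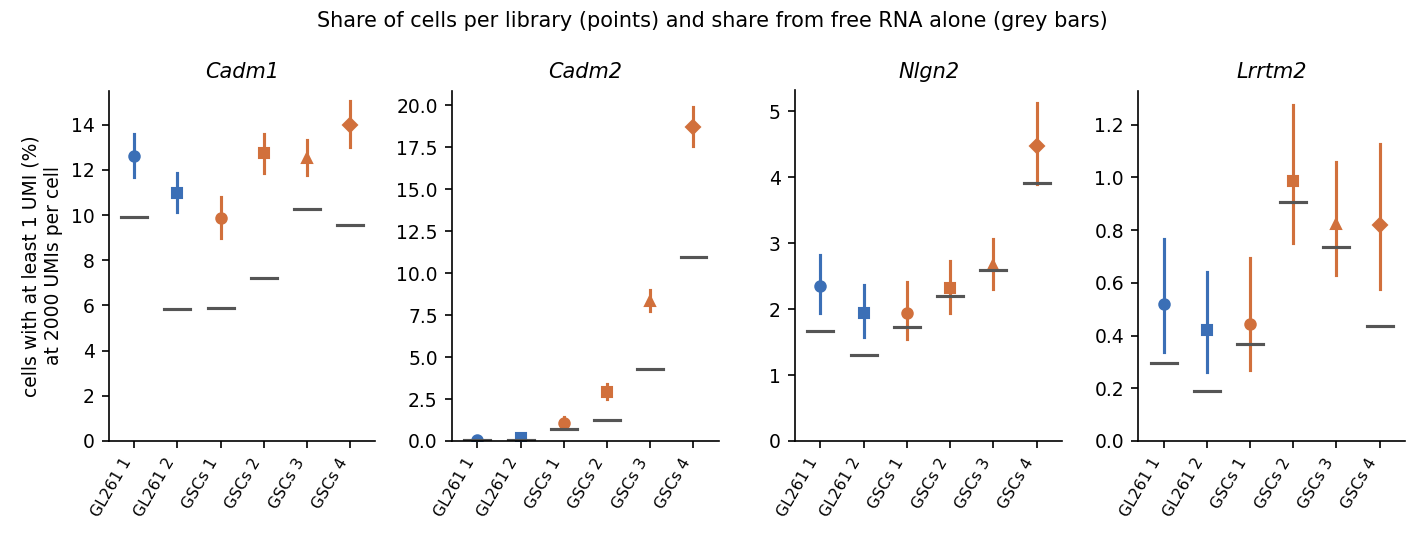
Share of cells that held a UMI of Cadm1, Cadm2, Nlgn2 or Lrrtm2, by library, each cell thinned to 2000 UMIs (points, with 95% exact binomial intervals). Grey bars are the share expected if all 2000 UMIs of a cell were free RNA. The Cadm2 points run from 1.08% to 18.7% in GL261-GSCs and stand above their grey bars, whereas the intervals of Nlgn2 in GL261-GSCs reach them.

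Cycling cells were compared with the other cells of their own library. Cells were put in the cycling class when they held at least 3 UMIs of 10 G2/M genes at 2000 UMIs per cell. Nlgn2 was lower in cycling cells in 4 of 4 GL261-GSCs libraries, at log2 ratios of -0.28, -0.25, -0.20 and -0.31, and in both GL261 libraries, at -0.51 and -0.56. Lrrtm2 was lower in cycling cells in all 4 GL261-GSCs libraries, with a mean log2 ratio of -0.49 ± 0.31 (SD, n = 4), as was Cadm2, at -0.14 ± 0.13 (SD, n = 4). Cadm1 was higher in cycling cells in 4 of 4 GL261-GSCs libraries, by 0.06 ± 0.06 (SD, n = 4) on the log2 scale. Each of these 4 genes had an exact permutation p of 0.12 by sign flips over the 4 libraries, the smallest they can give, and the same after adjustment (2-sided). Cycling cells were deeper than the others in every library, with medians of 16593 and 14586 UMIs in GL261-GSCs replicate 1 and 6734 and 6639 in replicate 4. With the cycling class set at 2 or more G2/M UMIs, Cadm2 was higher in cycling cells in 2 of 4 GL261-GSCs libraries (exact permutation p = 0.50) and Lrrtm2 in replicate 4 (exact permutation p = 0.25), so their direction did not hold in every library. Nlgn2 stayed lower and Cadm1 higher in all 4. Among cells with at least 10000 UMIs the mean log2 ratio was -0.36 for Nlgn2, -0.06 for Cadm2 and 0.01 for Cadm1.

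The genes whose level over the 6 libraries was most like that of each member with at least 1000 UMIs were taken from 5313 abundant genes by Pearson's r of log2(CPM + 1), as a description. For Cadm2 they were Phip (r = 0.997), Abi2 (0.996) and Fto (0.996), and 214 genes had an r above 0.95. Phip ran from 102 and 103 CPM in GL261 to 118, 128, 144 and 151 CPM in GL261-GSCs, the same order of libraries as Cadm2 over a far smaller range. For Nlgn2 the closest genes were Ankrd12 (0.998), Igf1r (0.995) and Gpatch8 (0.992), of 15 above 0.95. Lrrtm2 was closest to Zranb2 (0.974), Itm2a (0.967) and Snhg6 (0.965), and Cadm1 to Sin3b (0.999), Ppp3ca (0.979) and Ngrn (0.963). The 6 points of each r share library, depth and culture.

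The partners of these genes in synaptic adhesion were read from a list of 48. Of these, 31 were tested, 14 were called higher in GL261-GSCs and 5 lower, and the median log2 fold change was 1.40. Of the genes tested in this list 45.2% were thus called higher and 16.1% lower, beside 15.8% and 14.1% over all genes. Among those called higher, Slitrk1 and Slitrk3 had 0 UMIs in GL261 and Flrt2 had 1. These genes passed the count filter through GL261-GSCs and could only be called higher. Slitrk5, a postsynaptic leucine-rich repeat protein, stood at 0.339 ± 0.0599 CPM (SD, n = 2) over the GL261 libraries and rose to 28.6 ± 5.30 CPM (SD, n = 4), or by 6.39 on the log2 scale, with an SE of 0.31 (adjusted p = 6.3e-05, edgeR). Sparcl1, or hevin, which bridges neurexin and neuroligin, stood at 49.9 ± 6.43 CPM (SD, n = 2) over the GL261 libraries and rose to 858 ± 124 CPM (SD, n = 4). Adgrl3, a latrophilin receptor, stood at 10.1 and 3.48 CPM in the GL261 libraries and rose by 3.37 on the log2 scale (SE 0.55), or by 4.33 without GL261 replicate 1. The presynaptic receptor phosphatases Ptprs and Ptprf were called higher, by 1.25 (SE 0.26) and 0.77 (SE 0.23), calls lost without either GL261 library and, for Ptprf, without GL261-GSCs replicate 3 or 4, while Ptprd had 1 UMI in GL261 and 0 in GL261-GSCs. Slitrk6 fell by 1.58 on the log2 scale (SE 0.36) and Tenm3, a teneurin, by 0.49 (SE 0.14), and both calls were lost without either GL261 library. The Slitrk6 call was also lost without GL261-GSCs replicate 3, and that of Tenm3 under 7 of 14 alternatives in all. Without GL261 replicate 1 or without replicate 2, 8 of the list were called higher and 2 lower, and without GL261-GSCs replicate 3, 2 were called lower.

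Scaffold genes on the postsynaptic side moved in both directions. Of 23 listed, 18 were tested, with 5 called higher and 6 lower and a median log2 fold change of -0.23. These are 27.8% and 33.3% of those tested, beside 15.8% and 14.1% over all genes. Shank3, with 2 UMIs in GL261, passed the count filter through GL261-GSCs and could only be called higher. Among the PSD-95 family, which neuroligins bind through their cytoplasmic ends, Dlg3 stood at 2.26 ± 0.507 CPM (SD, n = 2) over the GL261 libraries and rose by 2.43 (SE 0.26) to 12.2 ± 1.89 CPM (SD, n = 4). Dlg4, which encodes PSD-95, fell by 1.45 on the log2 scale (SE 0.34), and its call was lost without either GL261 library. Dlg1 fell by 1.11 (SE 0.11), and Homer3 by 1.70 (SE 0.28). Magi1, a scaffold protein with several PDZ domains, and Homer1, a scaffold of glutamate receptors, rose by 1.94 (SE 0.20) and 0.90 (SE 0.14), the latter not called without GL261 replicate 1. Gphn, for gephyrin, which Nlgn2 binds at inhibitory synapses, was not called, at 0.28 (adjusted p = 0.176, edgeR). Without GL261 replicate 1 the list had 2 called higher and 2 lower, and without GL261 replicate 2 it had 2 called lower.

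On the presynaptic side 17 of 24 listed genes were tested, with 7 called higher and 2 lower and a median log2 fold change of 0.20. That median turned to -0.053 without GL261 replicate 2, and was 0.48 in cells with at least 10000 UMIs and 0.49 with a mitochondrial limit of 5%. The share called higher was 41.2%, beside 15.8% over all genes, and the share called lower was 11.8%, near the 14.1% over all genes. Of the genes tested here, 2 had 3 or fewer UMIs in a group, among them Ppfia2, which could only be called higher. Pclo, for the active zone protein piccolo, stood at 0.730 ± 0.119 CPM (SD, n = 2) over the GL261 libraries and rose by 4.09 (SE 0.64) to 12.5 ± 6.11 CPM (SD, n = 4). Ppfia3, a liprin-alpha gene, rose by 2.04 (SE 0.53), and Cask, which binds the cytoplasmic ends of neurexins and CADM proteins, by 0.97 (SE 0.19). Epb41l2, a membrane skeleton protein of the band 4.1 family, fell by 2.42 on the log2 scale (SE 0.12), and Erc1 by 0.96 (SE 0.15). The calls of Ppfia3 and Cask were lost without either GL261 library, that of Ppfia3 also without GL261-GSCs replicate 3 and under limma-voom, and those of Pclo and Erc1 without GL261 replicate 2. With GL261 replicate 1 left out 2 genes of the list were called higher, and with GL261 replicate 2 left out 1 was called higher and 1 lower.

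Of 11 genes for shedding of membrane proteins, 10 were tested, 0 were called higher and 3 lower, with a median log2 fold change of -0.46. These are 0% and 30% of those tested, beside 15.8% and 14.1% over all genes. In either direction 30% were called, near the 29.9% over all genes. The 3 include Timp3, which is an inhibitor and not a shedding enzyme. Adam10, the protease that sheds neuroligin-3, stood at 220 ± 20.1 CPM (SD, n = 2) over the GL261 libraries and fell to 81.7 ± 10.8 CPM (SD, n = 4), a log2 value of -1.43 with an SE of 0.15 (adjusted p = 0.000951, edgeR). Timp3, a metalloproteinase inhibitor, stood at 2926 ± 836 CPM (SD, n = 2) over the GL261 libraries and fell by 3.58 on the log2 scale (SE 0.19) to 244 ± 21.2 CPM (SD, n = 4). Psen2, a gamma-secretase subunit, fell by 0.90 (SE 0.19), a call lost without either GL261 library.

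**Figure D5:**
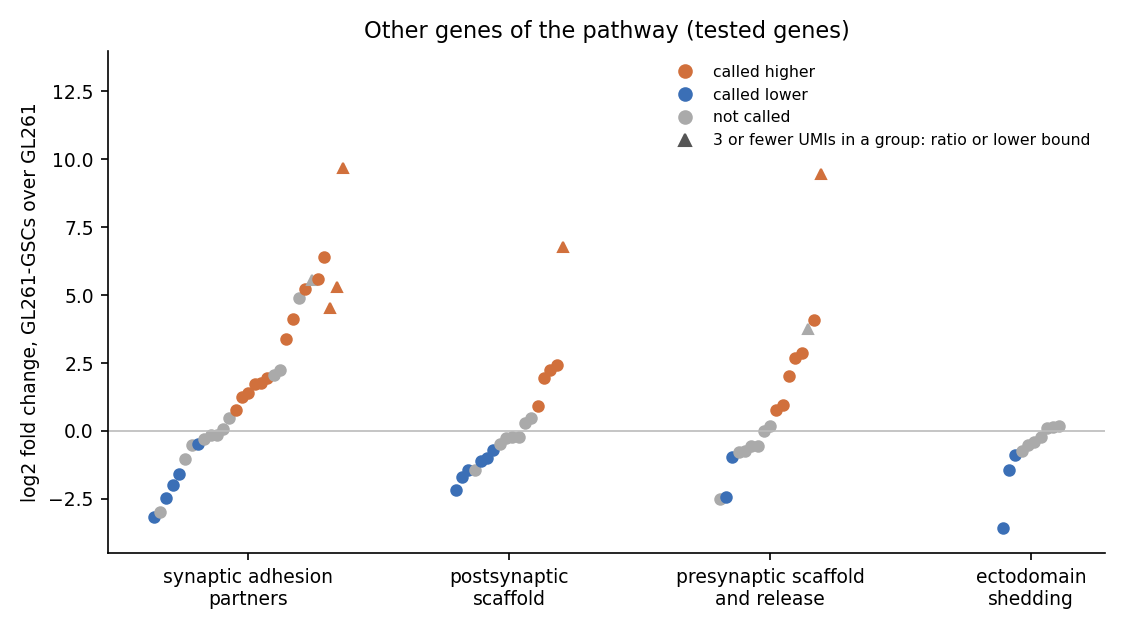
Log2 fold change of GL261-GSCs over GL261 for the tested genes of 4 lists, each point a gene; triangles are genes with 3 or fewer UMIs in a group, drawn at their ratio or lower bound. The synaptic adhesion partners hold 14 called higher and 5 called lower, and the shedding genes 0 called higher and 3 called lower, among them the inhibitor Timp3.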

How the data were processed

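Droplet 5' single-cell RNA-seq was deposited for 2 GL261 and 4 GL261-GSCs libraries, grouped by their titles. The authors deposited unfiltered matrices of raw UMI counts, made with Cell Ranger 4, per the file headers, on mm10 per the submitters' processing notes. The annotation release was not given in the sources used here.

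Barcodes were called cells when they reached 10% of the 99th percentile of UMIs over the 3000 largest barcodes, with at least 500 genes and under 10% mitochondrial UMIs. Doublets were not removed. UMI counts summed per library (33320530 to 79472306) were tested with edgeR 4.0.16 (quasi-likelihood, TMM, filterByExpr, Benjamini-Hochberg over 18439 genes, 2-sided). CPM values use TMM-scaled library sizes, except in classes of cells by depth, mitochondrial share or cycling, where they are relative to the UMIs of those cells. Group means are over libraries, and the SE is the absolute log2 fold change over the square root of the F statistic. A gene with 3 or fewer UMIs in a group has a ratio with a 95% counting interval or a bound. Thinning to 2000 UMIs used a fixed seed. Coordinates are from GENCODE M21 (GRCm38), which held all 9 identifiers, 7 with their version, and 5 of the 9 genes had a RefSeq promoter window. On simulated counts for GL261-GSCs against GL261, 200 of 18439 genes were changed by 2 on the log2 scale. There edgeR recovered 185 with 6 false calls, limma-voom (limma 3.58.1) 182 with 6, and DESeq2 1.42.0 188 with 25. The simulation gave every gene the same dispersion, so these rates may not hold for genes as uneven between libraries as Cadm2 or Nrxn2.

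The genes, the lists of other pathway genes and the tests were chosen with earlier results of these data known. From each list the text names up to 3 rises and 3 falls with the largest log2 fold change among called genes whose average log2 CPM was 3 or more and whose groups did not overlap. Lrrtm3, Lrrtm4, Cadm3, Ptprs, Ptprf, Ptprd, Gphn, Slitrk1, Slitrk3, Flrt2, Ppfia2, Shank3, Malat1, Syt1 and Elavl4 were named after their values were seen. Alternatives were DESeq2, limma-voom, library size scaling, no low-count filter, other cell limits, a replicate block, other thinning depths and leaving out each library.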

Additional observations from a re-analysis of the deposited data

Results flagged for a closer look

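In the 4 GL261-GSCs libraries, 56 groups of values were screened for a library far from the others. Chance flags about 1 in 20 groups of normally distributed values, a rate that does not hold for counts near 0. The CPM of Nrxn3 met this screen, since its 2 UMIs were both in replicate 3 and the gap to the other libraries was the whole range (a gap over range of 1). The unthinned share of cells with a Nrxn3 UMI met it in the same way, at 1, from the same 2 UMIs. A gene with UMIs in a single library always gives this value. The unthinned share of cells with a Nlgn1 UMI met it at 0.876, with 0.258% of cells in replicate 1 and 0.0412% to 0.0681% in the other 3.

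Cadm1 was higher in cycling than in other cells in all 4 GL261-GSCs libraries (mean log2 ratio 0.06) and lower in both GL261 libraries (-0.11 and -0.01), a difference of 0.12 between the group means. That difference was not tested. Among cells with at least 10000 UMIs it was lower in cycling cells in 1 of the 4 GL261-GSCs libraries.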

How the results depend on the processing

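Over 59 results and 757 values under alternatives, 679 kept their direction and side of the threshold, 39 lost a call, 27 moved and 12 reversed; the cause was not tested. The Cadm2 difference kept its direction in all 14, with an adjusted p of 4.50e-06 to 0.0737 over those with all libraries and log2 fold changes of 5.06 to 6.66 with 1 library left out (limma-voom 5.25). The Cadm1 log2 fold change was 0.0088 with library size scaling. That of Nlgn2 was -0.0072 in cells with at least 10000 UMIs.

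The replicate numbers did not pair the samples: deviations of same-numbered libraries correlated at -0.00712 and 0.0705. With the replicate block, to which GL261-GSCs replicates 3 and 4 add nothing, the log2 fold change was 3.95 for Cadm2 (adjusted p = 0.000231, edgeR), -0.12 for Nlgn2 and -0.97 for Nrxn2, the call of Ptprf was lost (adjusted p = 0.0640, edgeR), and 9 adhesion partners (median log2 fold change 0.68 over the list) and 4 presynaptic genes were called lower.

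With 1 library left out, 843 to 3372 genes were called higher and 974 to 2821 lower; the lowest were without a GL261 library, where the remaining one is assumed to vary like GL261-GSCs. Adhesion partners then had 8 to 15 higher and 2 to 5 lower, postsynaptic genes 2 to 5 and 2 to 7, and presynaptic genes 1 to 8 and 1 to 4, with a presynaptic median of -0.053 to 0.28. Shedding genes had 5 lower under DESeq2 and in cells with at least 10000 UMIs.

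Differences in share of cells, in percentage points, turned for Nlgn2 (-0.499 unthinned, -0.0222 in cells with at least 10000 UMIs), Cadm1 (-5.47 and -1.30 in the same settings, and -0.349 to 1.30 with 1 library left out) and Nrxn2 (-0.00171 in all barcodes with 1000 UMIs). Nrxn3 left 0 for 0.00687 unthinned, 0.00344 at 1000 UMIs per cell and 0.00430 in those barcodes. Depth limits Nlgn1, Nrxn3 and Lrrtm1, for which differences were not detectable or rest on few UMIs.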

Other observations

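Several adhesion and synaptic scaffold genes were named here after their values were seen. Flrt2, Slitrk1, Slitrk3, Ppfia2 and Shank3 had no or almost no UMIs in GL261 and passed the count filter through GL261-GSCs, so they could only be called higher. In the list of 48 adhesion partners 17 genes were too low to test, and 7 of the list had 0 UMIs in every library. The counting intervals ignore the spread between libraries. Flrt2, a ligand of latrophilins, had 1 UMI in GL261 and 1631 in GL261-GSCs, a ratio of 819 with a 95% counting interval of 147 to 32354. Ppfia2, a liprin-alpha gene, had 1 and 1401 UMIs, a ratio of 703 (126 to 27794), and Shank3, a postsynaptic scaffold gene, had 2 and 432, a ratio of 108 (29.8 to 898). Shank3 was uneven within GL261-GSCs, at 3.31, 2.51, 0.263 and 0.302 CPM in replicates 1 to 4. Mdga2, which binds neuroligins and blocks neurexin binding, stood at 0.0593 and 0.364 CPM in GL261 and at 2.09, 8.11, 7.74 and 14.1 CPM in GL261-GSCs, and its log2 fold change was 5.25 (SE 1.06, adjusted p = 0.0116, edgeR). Nxph3, a neurexophilin and so a ligand of neurexins, was lower, at 7.14 and 6.41 CPM in GL261 and 0.864, 0.925, 0.513 and 0.687 CPM in GL261-GSCs (log2 fold change -3.18, SE 0.28, adjusted p = 0.000502, edgeR).

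Epb41l3, of the band 4.1 family that binds CADM proteins, was at 262 and 281 CPM in GL261 and at 1.03, 34.9, 70.3 and 87.3 CPM in GL261-GSCs. It missed the threshold at a log2 fold change of -2.49, with an SE of 1.14 (adjusted p = 0.143, edgeR), with all GL261-GSCs libraries below both GL261 libraries.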
